A study of Homo sapiens with 8 samples.

Results

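In HT cells, 337 of 10593 autosomal islands of trimethylated lysine 4 of histone H3 (H3K4me3) overlapped an island of trimethylated lysine 27 of histone H3 (H3K27me3) by at least 1 bp, or 3.18%. An island is a stretch of the genome that the authors' peak caller marked as enriched in a ChIP-seq library. These sites were chosen by the measured overlap of the 2 HT lists, so their overlap, widths and scores are given below as a description. The HT EZH2 list and the 3 lists of SUDHL6 had no part in the choice. HT EZH2 covered part of 46.9% of these sites, against 7.01% of the other HT H3K4me3 islands and 8.28% of all of them. SUDHL6 carried H3K4me3 at 72.7% of the sites, against 74.5% of all HT H3K4me3 islands, and H3K27me3 at 25.2%, against 3.12%. Of all HT H3K27me3 islands, 21.3% met SUDHL6 H3K27me3 and 3.71% met SUDHL6 H3K4me3.

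H3K4me3 is placed at the starts of active genes by methyltransferases of the COMPASS family. H3K27me3 is written by Polycomb repressive complex 2, in which EZH2 is the catalytic subunit, and is a mark of silent genes. EZH2 is highly expressed in germinal centre B cells, from which many diffuse large B cell lymphomas arise. Promoters with both marks are known as bivalent and were first described at developmental genes of embryonic stem cells. An overlap of islands in a cell population does not tell whether both marks lie on the same nucleosome, on both alleles, or in different cells.

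HT and SUDHL6 are established lines of diffuse large B cell lymphoma, profiled without treatment. Each line had 1 library for each of 3 antibodies (H3K4me3, H3K27me3 and EZH2), and each library had 1 list of islands on hg19. On the autosomes the lists of HT and SUDHL6 held 10593 and 13281 islands for H3K4me3, 16851 and 13117 for H3K27me3, and 2508 and 1500 for EZH2. With 1 library for each line and antibody no test was possible. Shares carry exact 95% intervals (Clopper-Pearson), which take in counting error and nothing else. The depth of the libraries is unknown, so a missing island is not the absence of a mark, and line and library cannot be told apart. Gene positions and sequence on hg19 were not used here, so sites are given by position, counted from 1, with no gene.

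The marks mostly met at an edge. At 219 of the 337 sites (65.0%, 59.6 to 70.1%) an H3K27me3 island reached in over 1 end of the H3K4me3 island, and at 8 sites it did so over both ends. H3K27me3 covered the whole H3K4me3 island at 82 sites (24.3%, 19.8 to 29.3%). It lay inside a wider H3K4me3 island at 28 sites (8.31%, 5.59 to 11.8%), counting those flush with 1 end but not past it. The classes go by the ends alone, so an overlap over 1 edge took up from 0.541% to 97.0% of the H3K4me3 island. An edge overlap was thus the most frequent arrangement, and an H3K27me3 island within H3K4me3 was uncommon.

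The bases shared at a site ran from 150 to 6300 bp with a median of 900 bp and a middle range of 450 to 1500 bp. As a share of the H3K4me3 island the overlap had a median of 50%, and it reached 50% or more at 175 sites. Over a single edge the median overlap was 750 bp, or 33.3% of the island, and the H3K27me3 island ran on past the edge by a median of 1950 bp. Where H3K27me3 lay inside, the median overlap was 1350 bp, or 39.8% of the island. All sites together shared 376 kb, which is 1.51% of the bases under HT H3K4me3 and 0.693% of those under HT H3K27me3. Only 10 sites met 2 H3K27me3 islands, so nearly every site was a single pair.

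**Figure D1:**
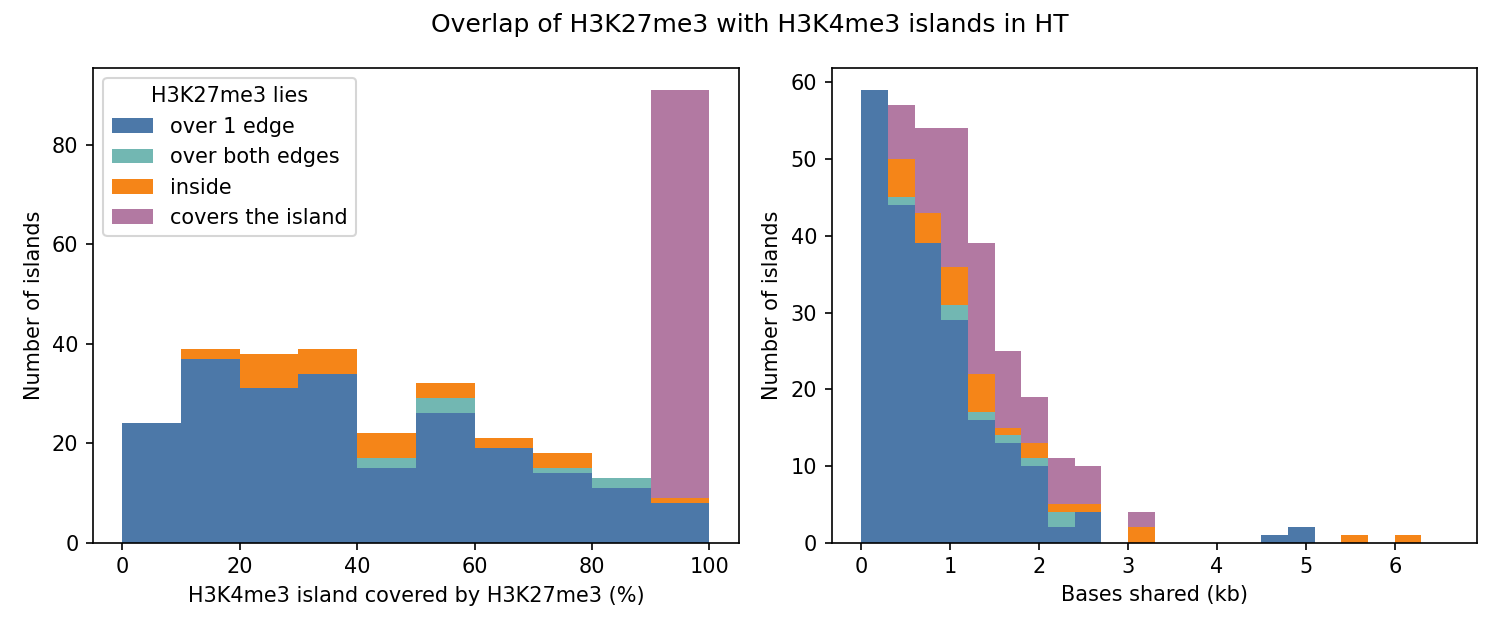
The percentage of each HT H3K4me3 island covered by HT H3K27me3 (left) and the shared bases in kb (right) for the 337 sites, coloured by where H3K27me3 lies. Edge overlaps make up most of the range below 100%, and few sites share more than 3 kb. The bar at the right end holds the 82 covered islands among 91 sites at 90% or more.

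H3K4me3 islands that were covered whole were narrow. Their median width was 1350 bp, against 2250 bp for sites with an overlap at 1 edge and 2925 bp for sites with H3K27me3 inside. The H3K27me3 islands over the covered sites had a median width of 4125 bp. Over all 337 sites the H3K4me3 islands ran from 450 to 27750 bp with a median of 1950 bp, and the other HT H3K4me3 islands had a median of 2100 bp. By median width the sites were thus nearly as wide as the rest of the list. Islands of 10 kb or wider were few, but 6 of the 51 in the whole list were sites (11.8%, 4.44 to 23.9%), against 3.18% of all HT H3K4me3 islands. At 5 kb or wider the share was 3.97% (2.18 to 6.56%). A wide island meets a 1 bp rule more easily, and this was not allowed for. Of the 6 sites of 10 kb or wider, those on chromosomes 1, 2 and 9 lay near long stretches without any island, as given below.

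The authors' score per island is a whole number of unstated unit, and it is used only within a list. The sites had a median H3K4me3 score of 54 (16 to 570), against 73 for the other islands. Per kb of island the median was 27.4, against 34.6, and the median site stood at the 31.5th percentile of the list. The sites were unevenly spread over the list, since 5.22% (4.40 to 6.13%) of the 25% of islands with the lowest score per kb carried H3K27me3, against 0.792% (0.491 to 1.21%) of the 25% with the highest. H3K27me3 differed in the other direction. The 345 HT H3K27me3 islands that met H3K4me3 had a median of 22.7 per kb, against 20 for the other HT H3K27me3 islands, and a median width of 2850 bp, against 2550 bp. H3K4me3 at these sites thus ranked low in its list, while the H3K27me3 beside it ranked above the middle of its own, at a median percentile of 71.5.

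The rule turns on small distances. The least overlap was 150 bp, 1 calling window, and 31 sites had it. Just outside the rule, 21 further H3K4me3 islands touched an H3K27me3 island without sharing a base, and 17 lay 150 bp away. HT EZH2 lay on 13 of the 31 sites with the least overlap and on 3 of the 21 islands that only touched.

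The sites with the most shared bases lay partly beside long stretches without any island. The most, 6300 bp, were shared on chromosome 1 at 120582151 to 120599550, where an H3K4me3 island of 17400 bp held an H3K27me3 island and no HT EZH2. Next came chromosome 2 at 91891351 to 91907250, with 5700 bp shared inside an island of 15900 bp. On chromosome 11 at 118120351 to 118137600, an H3K27me3 island of 18000 bp reached 5100 bp into an H3K4me3 island of 17250 bp. On chromosome 9, 4950 bp were shared at 69784351 to 69796350 and 4800 bp at 42741751 to 42746700. The sites on chromosomes 1, 2 and 9 all lay within 5 Mb of a stretch of 3 Mb or more that held no island of any of the 6 lists. Both sites on chromosome 11 lay away from such stretches, and the one at 108491701 to 108495000 was covered whole, over 3300 bp. In all, 41 of the 337 sites (12.2%, 8.87 to 16.1%) lay that near to such a stretch, against 12.1% of all HT H3K4me3 islands. Their H3K4me3 islands had a median width of 2400 bp, against 1950 bp for the other 296 sites, and 22 of the 41 (53.7%, 37.4 to 69.3%) had HT EZH2, against 6.10% (4.84 to 7.58%) of the other HT H3K4me3 islands near such stretches and 7.62% of all those near them. Without the 41 sites, HT EZH2 lay on 45.9% (40.2 to 51.8%) of the remaining sites.

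The widest site and the highest H3K4me3 score among the sites belonged to 1 island, on chromosome 2 at 92232001 to 92259750. It measured 27750 bp, had a score of 570 and shared only 150 bp with H3K27me3 at its edge. HT EZH2 covered 6600 bp of it and SUDHL6 H3K4me3 covered 27150 bp. By score the next were the island on chromosome 11 at 118120351, with 508, and an island of 13050 bp on chromosome 11 at 110295901 to 110308950, with 437. The island at 110295901 shared 1050 bp with H3K27me3, and HT EZH2 covered 6450 bp of it. The 3 highest scores thus all belonged to edge overlaps.

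HT EZH2, which was not used to choose the sites, lay over many of them. An EZH2 island overlapped 158 of the 337 sites (46.9%, 41.5 to 52.4%), 719 of the 10256 other HT H3K4me3 islands (7.01%, 6.52 to 7.52%) and 8.28% of all HT H3K4me3 islands. The intervals lay far apart, and no test of this difference was made. Where it occurred, EZH2 took up most of the island. It covered the median EZH2-bearing site over its full width (100%), against 92.3% for the other EZH2-bearing H3K4me3 islands.

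The gap in EZH2 was present in each width class. Below 1 kb, EZH2 lay on 25% (11.5 to 43.4%) of the sites and 4.26% (2.95 to 5.94%) of the other H3K4me3 islands. From 1 to 2 kb it lay on 47.1% (38.6 to 55.8%) and 5.45% (4.77 to 6.19%), and from 2 to 4 kb on 48.5% (39.9 to 57.2%) and 7.60% (6.85 to 8.40%). At 4 kb or wider the shares were 61.3% (42.2 to 78.2%) of the sites and 13.9% (11.7 to 16.5%) of the others. EZH2 was thus found more often on wider islands with or without H3K27me3.

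Seen from the H3K27me3 side the shares were much alike. EZH2 overlapped 166 of the 345 HT H3K27me3 islands that met H3K4me3 (48.1%, 42.7 to 53.5%), 6.89% (6.51 to 7.29%) of the other HT H3K27me3 islands and 7.73% of all of them. From 2 to 4 kb it was on 50% (41.4 to 58.6%) of those that met H3K4me3 and 6.25% (5.67 to 6.86%) of the others. Islands with a single mark, of either kind, thus carried EZH2 at 7.01% and 6.89%.

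**Figure D2:**
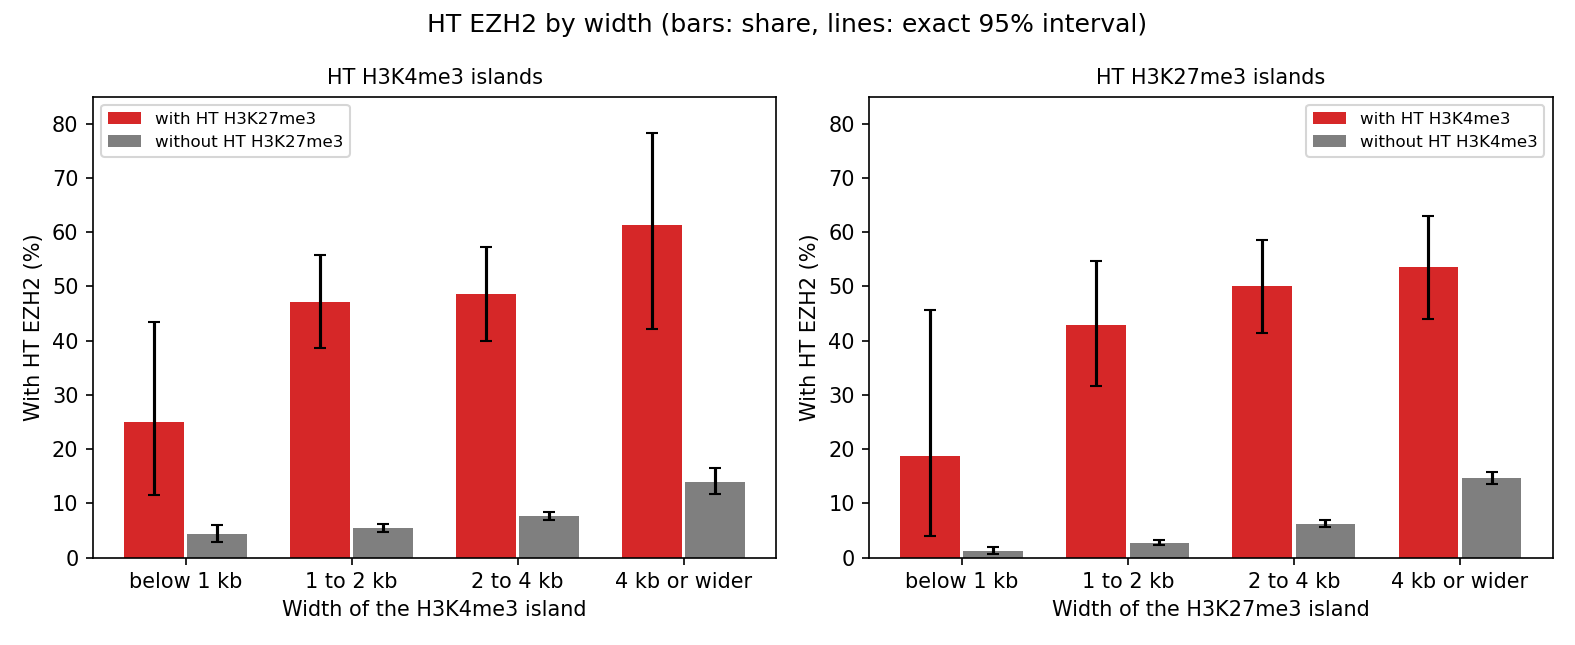
Share of islands with HT EZH2 in percent by width, for HT H3K4me3 islands with and without HT H3K27me3 (left) and HT H3K27me3 islands with and without HT H3K4me3 (right), with exact 95% intervals as lines. Islands with both marks carry EZH2 more often in every width class, with wide intervals below 1 kb where there are 32 and 16 such islands.

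Within the sites EZH2 covered the largest share of bases where the marks overlapped. It covered 47.5% of the bases shared by both marks, 28.4% of the H3K4me3 bases of the sites without H3K27me3, and 31.3% of the H3K27me3 bases beside them. Over the rest of the genome it covered 6.52% of the bases of the other H3K4me3 islands and 6.72% of those of the other H3K27me3 islands. Of the 158 sites with EZH2, 155 had it over shared bases (98.1%). On chromosome 2 at 90437851 to 90444900, the next by shared bases among sites with EZH2 after both sites on chromosome 9, EZH2 covered 4200 of 7050 bp and H3K27me3 took up 3150 bp inside. The flanks of a site thus also carried more EZH2 than islands of a single mark elsewhere.

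Among the sites, EZH2 was most frequent at the larger overlaps. It lay on 57.8% (49.0 to 66.2%) of the 135 sites that shared more than 1050 bp, 41.4% (32.2 to 51.2%) of the 111 sharing 600 to 1050 bp and 35.0% (23.1 to 48.4%) of the 60 sharing 300 to 450 bp. At the 31 sites sharing 150 bp it was 41.9% (24.5 to 60.9%), so the order was not strict. Large overlaps need wide islands, and HT EZH2 lay on 25% of sites below 1 kb and 61.3% of those at 4 kb or wider. Overlap and width were not separated here. By arrangement it lay on 47.9% of edge overlaps, 42.7% of covered sites and 42.9% of sites with H3K27me3 inside, with intervals that overlap, and on 6 of the 8 sites met over both edges. The median H3K4me3 score per kb was 26.9 at sites with EZH2 and 27.5 at sites without it. Per island the median H3K4me3 scores were 56.5 and 50. The H3K27me3 islands had median scores of 78.5 and 57 per island and median widths of 3150 and 2850 bp.

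In SUDHL6 the sites were most often marked by H3K4me3 alone. Of the 337 sites, 191 had SUDHL6 H3K4me3 only (56.7%, 51.2 to 62.0%), 54 had both marks (16.0%, 12.3 to 20.4%), 31 had H3K27me3 only (9.20%, 6.34 to 12.8%) and 61 had neither (18.1%, 14.1 to 22.6%). Over all HT H3K4me3 islands these states held 72.6%, 1.87%, 1.25% and 24.3%. H3K27me3 of SUDHL6 lay on 85 sites (25.2%, 20.7 to 30.2%), against 2.39% (2.10 to 2.70%) of the other HT H3K4me3 islands and 3.12% of all. H3K4me3 of SUDHL6 lay on 245 sites (72.7%, 67.6 to 77.4%), against 74.5% (73.7 to 75.4%) of the others, and on 74.5% of all. Counted by island, the sites differed from the rest of the list in SUDHL6 H3K27me3 and were alike in SUDHL6 H3K4me3 within the intervals. Neither was tested. By bases, SUDHL6 H3K27me3 covered 14.2% of those shared in HT. It covered 1.02% of the bases of other HT H3K4me3 islands and 17.9% of those of other HT H3K27me3 islands. For SUDHL6 H3K4me3 these shares were 49.7%, 59.3% and 1.25%.

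**Figure D3:**
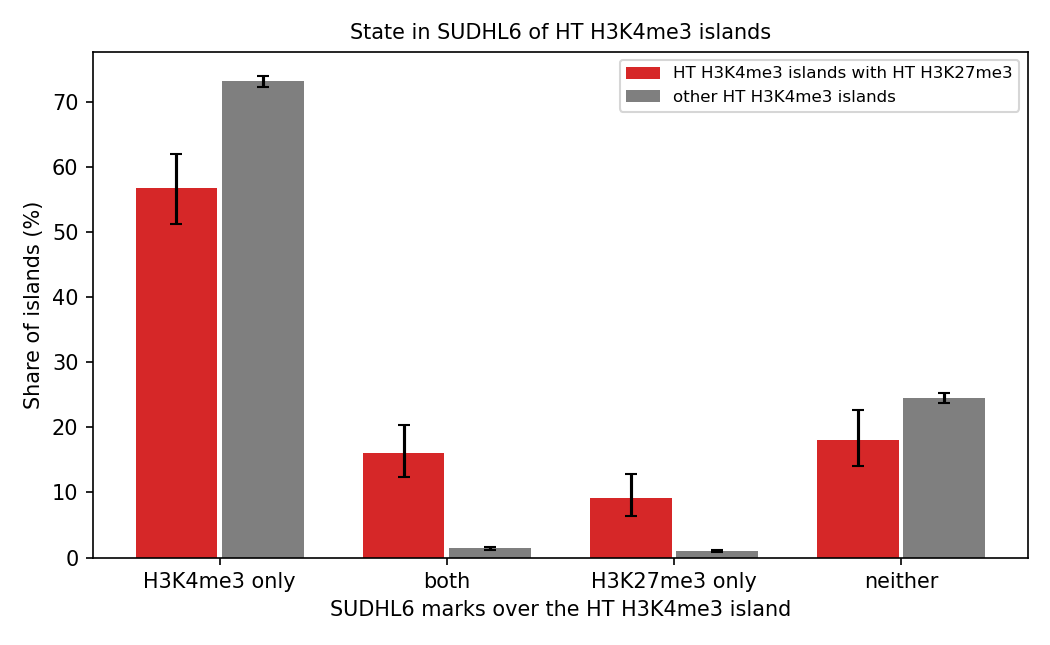
Share of HT H3K4me3 islands in percent by the marks that SUDHL6 has over them, for the 337 islands with HT H3K27me3 and the other HT H3K4me3 islands, with exact 95% intervals as lines. Both SUDHL6 states with H3K27me3 hold larger shares of the sites, and H3K4me3 only and neither hold smaller ones.

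Among HT H3K27me3 islands, those with and without H3K4me3 were nearer each other in SUDHL6 H3K27me3 and further apart in SUDHL6 H3K4me3 than the corresponding H3K4me3 islands. SUDHL6 H3K27me3 overlapped 29.6% (24.8 to 34.7%) of the HT H3K27me3 islands that met H3K4me3, 21.1% (20.5 to 21.7%) of the others and 21.3% of all. Within width classes the shares were 45.6% (36.3 to 55.2%) and 40.2% (38.7 to 41.8%) at 4 kb or wider, and 25.4% (18.3 to 33.5%) and 19.7% (18.8 to 20.7%) from 2 to 4 kb. These intervals overlap. SUDHL6 H3K4me3 lay on 61.7% (56.4 to 66.9%) of the islands that met HT H3K4me3, 2.5% (2.26 to 2.75%) of the others and 3.71% of all.

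H3K4me3 at the weakest sites was found in SUDHL6 more often than at other HT islands of like score. In the 25% of the HT list with the lowest score per kb, 60.1% (51.5 to 68.4%) of the 138 sites and 30.0% (28.2 to 31.8%) of the other islands had SUDHL6 H3K4me3. In the next 25% the shares were 78.2% (69.9 to 85.1%) and 80.4% (78.8 to 81.9%). In the next they were 81.5% (68.6 to 90.7%) and 91.0% (89.8 to 92.1%), and in the 25% with the highest scores they were 21 of 21 sites (83.9 to 100%) and 95.1% (94.2 to 95.9%). Of these 4 groups, the lowest was the one with the sites above the others and intervals apart.

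The 54 sites with both marks in SUDHL6 had a smaller median overlap in HT than the sites of each other SUDHL6 state. They shared a median of 750 bp, or 33.3% of the H3K4me3 island, against 900 bp and 50% over all sites. At the 61 sites with neither SUDHL6 mark it was 1200 bp and 77.8%. The H3K4me3 islands were wider with both marks, at a median of 2400 bp, than with neither, at 1650 bp. Width and state were not separated here. At the 54 sites the HT H3K27me3 islands, the wider one where a site met 2, had a median width of 4125 bp. At 44 of the 54, H3K27me3 met H3K4me3 at 1 edge. At 40 of the 54 sites (74.1%, 60.3 to 85%) the SUDHL6 islands overlapped each other, within the site or beyond it. For the other HT H3K4me3 islands with both SUDHL6 marks the share was much alike, at 99 of 144 (68.8%, 60.5 to 76.2%). SUDHL6 H3K27me3 lay over bases shared in HT at 50 of the 54 sites and SUDHL6 H3K4me3 at 40. The most shared bases in this state lay on chromosome 18 at 29263651 to 29266200, where H3K27me3 took up 2400 bp of an H3K4me3 island of 2550 bp from the same first base on. SUDHL6 H3K27me3 covered all 2550 bp there and SUDHL6 H3K4me3 covered 1050 bp, with no EZH2 in either line. On chromosome 6 at 43737151 to 43739850, 2100 bp were shared and HT EZH2 and SUDHL6 H3K4me3 both covered all 2700 bp, while SUDHL6 H3K27me3 reached in by 150 bp. On chromosome 17 at 8021851 to 8026200, H3K27me3 came in over both edges and left a gap, sharing 2100 of 4350 bp. EZH2 of both lines covered that island whole, with 1350 bp of SUDHL6 H3K4me3 and 1200 bp of SUDHL6 H3K27me3.

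At 31 sites SUDHL6 had H3K27me3 and no H3K4me3. Their HT overlap was larger, with a median of 1050 bp or 66.7% of the island. On chromosome 16 at 85589701 to 85592100, HT H3K27me3 and the EZH2 of both lines covered all 2400 bp of the H3K4me3 island, and SUDHL6 H3K27me3 covered 2250 bp. On chromosome 17 at 71160151 to 71162400, HT H3K27me3, HT EZH2 and SUDHL6 H3K27me3 each covered all 2250 bp, with no SUDHL6 EZH2. On chromosome 12 at 6936601 to 6938850, HT H3K27me3 covered 2100 bp and HT EZH2 1500 bp, and SUDHL6 H3K27me3 and EZH2 each covered all 2250 bp. At these 3 sites SUDHL6 thus had the mark of silent chromatin over nearly the whole HT H3K4me3 island.

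The 191 sites with SUDHL6 H3K4me3 alone had the largest share with HT EZH2, with an interval that overlaps those of the other states except neither. It was present at 53.4% (46.1 to 60.6%) of them, 48.1% (34.3 to 62.2%) of the sites with both SUDHL6 marks, 32.3% (16.7 to 51.4%) of those with SUDHL6 H3K27me3 only and 32.8% (21.3 to 46.0%) of those with neither. Among other HT H3K4me3 islands with SUDHL6 H3K4me3 only, 8.17% (7.56 to 8.82%) had HT EZH2. The 3 sites with the most shared bases in this state were those named above on chromosome 1 at 120582151, chromosome 11 at 118120351 and chromosome 9 at 69784351. SUDHL6 H3K4me3 covered 10650 of 17400 bp on chromosome 1, 1050 of 17250 bp on chromosome 11 and 9600 of 12000 bp on chromosome 9. The part of the island under SUDHL6 H3K4me3 thus differed widely among these 3.

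The 61 sites with neither mark in SUDHL6 had low H3K4me3 scores in HT, with a median of 38 and 21.3 per kb. Low scores went with this state among the other HT H3K4me3 islands too. Of those in the 25% of the list with the lowest score per kb, 69.0% (67.1 to 70.8%) had neither mark. In the 25% with the highest it was 4.52% (3.76 to 5.39%). H3K27me3 covered 25 of the 61 sites whole. The leading ones were the sites on chromosome 2 at 91891351 and chromosome 11 at 108491701 named above, and chromosome 1 at 149679601 to 149682300, which was covered over all 2700 bp. None of these 3 had EZH2 in either line.

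**Figure D4:**
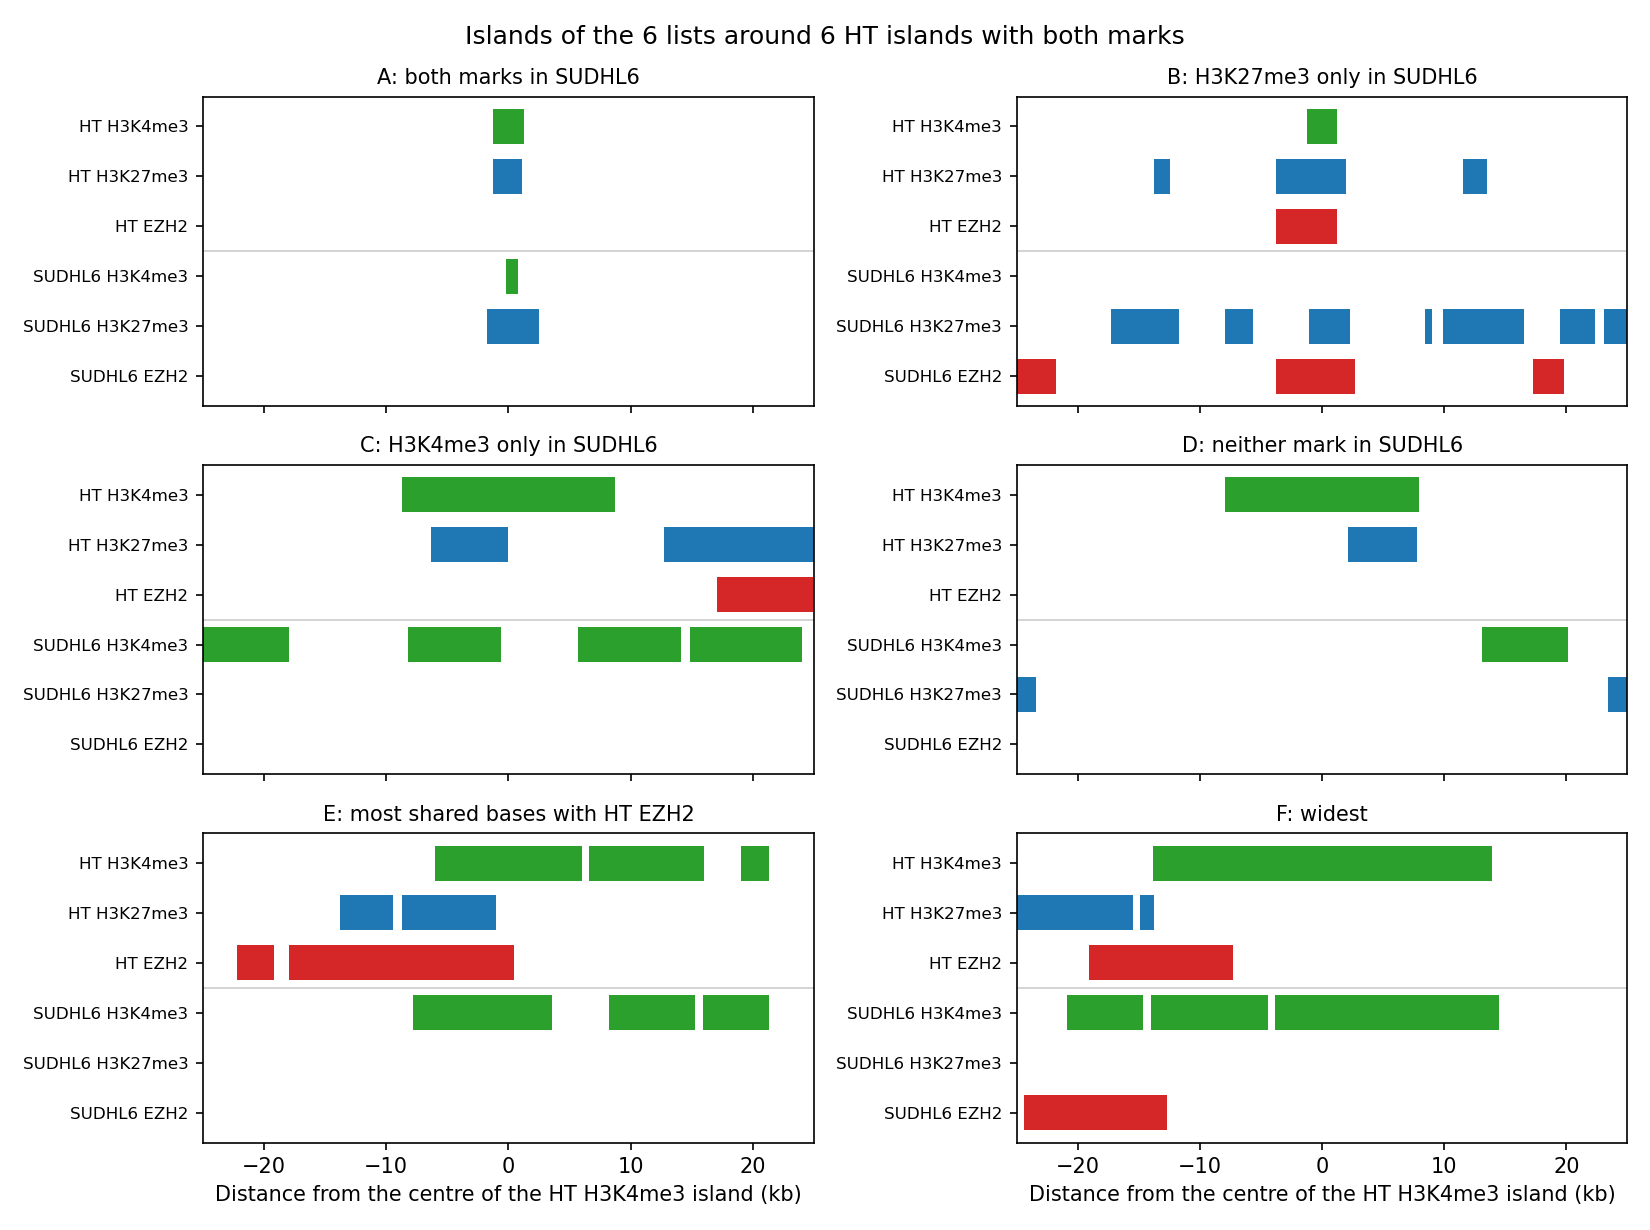
Islands of the 6 lists within 25 kb of the centre of 6 HT H3K4me3 islands, as distance in kb. Panels show the leading site on chromosome 18 (A), chromosome 16 (B), chromosome 1 (C) and chromosome 2 (D) for each SUDHL6 state, the leading site with HT EZH2 on chromosome 9 (E) and the widest site on chromosome 2 (F). H3K27me3 covers the island whole in B, sits within it in A, C and D, and meets an edge in E and F.

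SUDHL6 EZH2 lay on fewer sites than HT EZH2. It overlapped 47 of the 337 (13.9%, 10.4 to 18.1%), 1.84% (1.59 to 2.12%) of the other HT H3K4me3 islands and 2.23% of all of them. Of the 345 HT H3K27me3 islands that met H3K4me3 it overlapped 13.9% (10.4 to 18.0%), against 4.22% (3.92 to 4.53%) of the others and 4.42% of all. EZH2 of both lines lay on 33 sites (9.79%, 6.84 to 13.5%) and on 29 other HT H3K4me3 islands (0.283%, 0.189 to 0.406%). SUDHL6 EZH2 was on 20.9% (14.8 to 28.1%) of the sites with HT EZH2 and 7.82% (4.34 to 12.8%) of those without. For the other HT H3K4me3 islands the shares were 4.03% (2.72 to 5.74%) with HT EZH2 and 1.68% (1.43 to 1.96%) without. Over all HT H3K4me3 islands they were 7.07% and 1.79%, so this split was not particular to the sites. By state, SUDHL6 EZH2 was on 31.5% (19.5 to 45.6%) of sites with both SUDHL6 marks and 29.0% (14.2 to 48.0%) of those with SUDHL6 H3K27me3 only. It was on 8.90% (5.27 to 13.9%) of those with SUDHL6 H3K4me3 only and 6.56% (1.82 to 15.9%) of those with neither. Among the other HT H3K4me3 islands it was on 13.2% (8.13 to 19.8%) of those with both SUDHL6 marks and 21.8% (14.2 to 31.1%) of those with SUDHL6 H3K27me3 only. It was on 1.76% (1.47 to 2.08%) of those with SUDHL6 H3K4me3 only and 0.637% (0.365 to 1.03%) of those with neither. In the sites and the other islands alike, SUDHL6 EZH2 was most frequent where SUDHL6 H3K27me3 lay, and for SUDHL6 H3K27me3 only the intervals of the sites and the other islands overlap.

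Islands of all 6 lists met at 10 sites (2.97%, 1.43 to 5.39%). Beside the site on chromosome 17 at 8021851, they lay on chromosomes 1, 7, 8, 10, 15, 16, 17 and 22, with a pair on chromosome 15. Those on chromosome 8 at 134584051 to 134585100, chromosome 16 at 66637951 to 66639900 and chromosome 17 at 17584951 to 17586450 were covered whole by HT H3K27me3. The site on chromosome 8 had 1050 bp of every list but SUDHL6 H3K4me3, which covered 900 bp. These sites were picked out after their values were seen.

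EZH2 and SUDHL6 H3K27me3 also occurred more often on H3K4me3 islands that lay near HT H3K27me3 without meeting it than on those further away. HT EZH2 was on 20% (12.3 to 29.8%) of the 90 islands from 150 bp to 1 kb away, 9.15% (6.21 to 12.9%) of the 317 islands 1 to 5 kb away and 5.87% (5.23 to 6.57%) of the 4835 islands over 100 kb away. SUDHL6 H3K27me3 was on 13.3% (7.08 to 22.1%), 7.57% (4.91 to 11.1%) and 0.869% (0.627 to 1.17%) of the same sets. From overlap to over 100 kb both shares came down, SUDHL6 H3K27me3 at each step and HT EZH2 at each step but 1. The exception was the set of 21 islands that touched, with HT EZH2 on 14.3% (3.05 to 36.3%), an interval too wide to place it. For HT EZH2 the interval of the 337 sites lay above that of every set that did not overlap, while for SUDHL6 H3K27me3 it overlapped those of the islands that touched or lay within 1 kb.

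**Figure D5:**
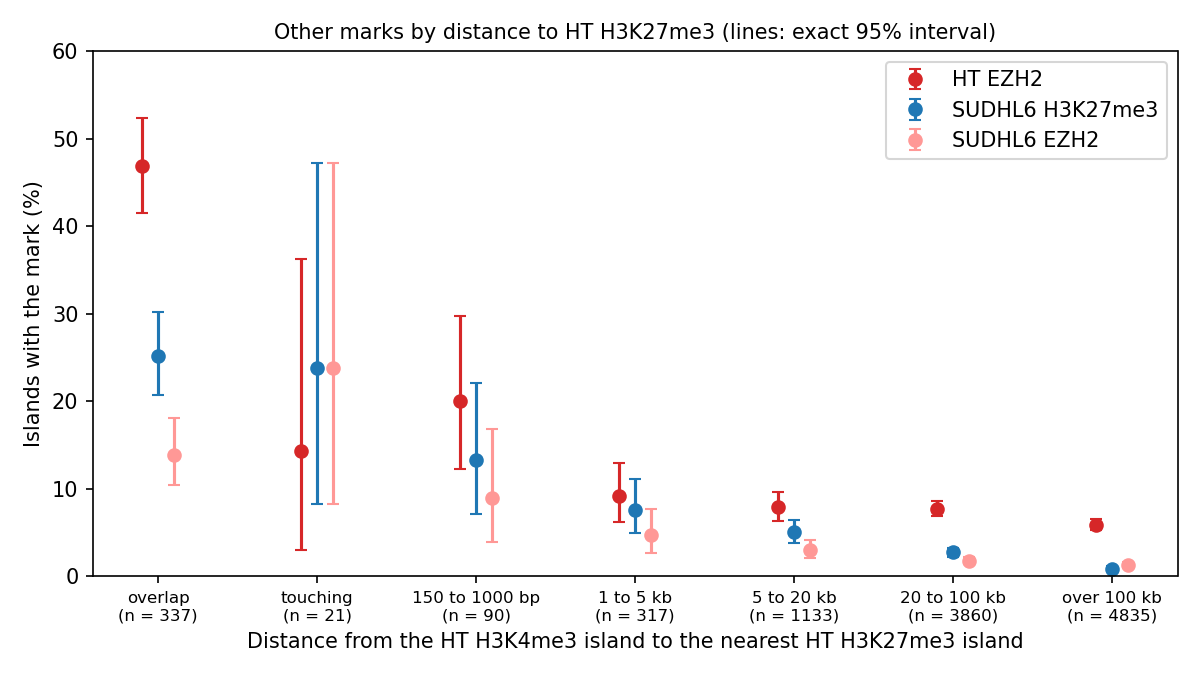
Share of HT H3K4me3 islands in percent with HT EZH2, SUDHL6 H3K27me3 and SUDHL6 EZH2, by distance to the nearest HT H3K27me3 island, with exact 95% intervals as lines and the number of islands under each class. All 3 shares are lowest beyond 100 kb, and HT EZH2 stands highest at the 337 overlapping sites.

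The sites lay on all 22 autosomes. Chromosome 1 held the most, with 39, and chromosome 21 the fewest, with 6. As a share of HT H3K4me3 islands they ran from 1.69% on chromosome 16 (0.778 to 3.19%) and chromosome 19 (0.876 to 2.93%) to 5.18% on chromosome 15 (3.19 to 7.89%), and 4.86% on chromosome 10 (3.17 to 7.10%). Neighbouring sites had a median gap of 3920 kb. Of 315 gaps, 18 were at 100 kb or less and 8 at 10 kb or less. Gaps between the other HT H3K4me3 islands were not measured, so whether the sites were clustered was not tested.

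Towards chromosome ends the HT sites were as frequent as other islands, but their SUDHL6 state differed. The outer 10 Mb, taken from the outermost island of any list on a chromosome, held 70 sites (20.8%, 16.6 to 25.5%) and 20.9% of all HT H3K4me3 islands. SUDHL6 H3K27me3 lay on 40% (28.5 to 52.4%) of the 70 sites there and 21.3% (16.6 to 26.8%) of the 267 sites further in. Among other HT H3K4me3 islands it lay on 4.11% (3.31 to 5.03%) and 1.94% (1.65 to 2.26%). HT EZH2 showed no such split, with 45.7% (33.7 to 58.1%) and 47.2% (41.1 to 53.4%) of the sites. SUDHL6 H3K27me3 was on a larger share of the sites than of the other islands both near the ends and further in.

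The same overlap made within SUDHL6 gave 323 of 13281 H3K4me3 islands (2.43%, 2.18 to 2.71%). The median overlap was 900 bp or 50% of the island at the HT sites, against 600 bp or 33.3% in SUDHL6. SUDHL6 EZH2 lay on 21.1% (16.7 to 25.9%) of the SUDHL6 islands with both marks, against 1.48% (1.28 to 1.70%) of the other SUDHL6 H3K4me3 islands and 1.96% of all. Both lines thus had more EZH2 on islands with both marks than on other H3K4me3 islands, and the EZH2 list of SUDHL6 was the shorter one.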

How the data were processed

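ChIP-seq islands of H3K4me3, H3K27me3 and EZH2 were taken from the lists that the authors deposited, 1 for each library. The caller SICER and the build hg19 come from the submitters' processing notes. The file names give windows of 150 bp, gaps of 450 bp and a false discovery rate of 1E-7. The aligner, filters and control were not given there or in the labels. The deposited score of each island was used within its list only. The 2 input samples were not used here.

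Chromosomes 1 to 22 were kept, overlap means at least 1 bp, and positions are 1-based. Python 3.11.15, numpy 2.4.6, pandas 2.3.3, scipy 1.17.1 and matplotlib 3.10.9 were used, with overlaps tested on simulated data. Gene lists and sequences needed hg19 gene positions and were left out. Named sites are the 6 with the most shared bases, and the leading 3 by shared bases with HT EZH2 and in each SUDHL6 state, by width and by score. Sites, lists and rules were chosen with earlier results of these data known. Distance, chromosome position, score groups and the SUDHL6 counterpart were added after the data were seen. The closing section gives 7 other settings, and 1 added in the same way.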

Additional observations from a re-analysis of the deposited data

How the results depend on the processing

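No paired analysis was possible because each line and antibody had 1 library. Where a site needed H3K27me3 over 50% of its H3K4me3 island, 175 sites remained, with a median of 1350 bp shared. Then 52.0% lay inside or were covered, and 9.14% had both SUDHL6 marks and 24.0% neither. With the other lists counted at 50% of the island, HT EZH2 lay on 41.2%, both SUDHL6 marks on 4.15% and neither on 31.8%. Counted over the shared bases, SUDHL6 H3K4me3 alone lay on 50.4%, both marks on 11% and neither on 26.4%. Keeping from every list the top 50% by score left 68 sites, 13.2% of them inside or covered, with HT EZH2 on 47.1%. With islands within 5 kb joined, 40.5% lay inside or were covered. By definition all 82 covered sites met the need for H3K27me3 over 50% of the island. A stricter count of the other lists can only lower the share with both SUDHL6 marks and raise that with neither. The cause of the other shifts was not tested. Under these settings, a 300 bp minimum, islands of at least 1 kb, and without the sites beside island-free stretches, a setting chosen after seeing the data, the shares of sites with HT EZH2, in each SUDHL6 state, and inside or covered otherwise stayed within the interval of the reported value. No other share was computed again under all these settings. The number of sites was otherwise 292 to 338 and the median overlap 900 to 1050 bp. Depth limits every statement on a missing mark. Line, library and depth cannot be told apart, and the intervals hold no spread between cultures. The lists came from different antibodies, and the H3K27me3 lists carry another normalization tag than the EZH2 and H3K4me3 lists, so scores were not compared between antibodies.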
